A study of Mus musculus with 34 samples.

Results

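Genes named for proteins of the mitochondrial ribosome are described here. The 78 genes carry symbols that begin with Mrpl (49 genes, large subunit) or Mrps (29 genes, small subunit) followed by a digit. They were chosen by name among the protein-coding genes of GENCODE M21, with a mean of at least 1 CPM (counts scaled to a common library size) over all libraries, out of 48526 genes in the table. All 78 protein-coding genes with such symbols passed that level and all 78 were among the 18292 genes tested. The gene closest to the limit was Mrpl55, with a mean of 8.1 CPM, and no gene lay just outside it. RNA from splenic pan T cells of C57BL/6 mice aged 6 to 12 weeks was sequenced in 34 libraries. The T cells were purified by negative selection and stimulated in culture with antibodies to CD3 and CD28 plus recombinant IL-2.

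The stimulated groups were, each at day 1 (24 hours) and day 3 (72 hours), CD28 AYAA, CD28 Y170F, Ars2 KO and DKI, with 3 libraries each a day, and CD28 KO and WT, with 2 each a day, and the unstimulated group was WT at day 0 (2 libraries). All stimulated groups received the same agents, the mutants as well as WT. ARS2 is an RNA-binding protein that links the cap-binding complex to RNA processing and decay, and CD28 is the costimulatory receptor of T cells. AYAA and Y170F name changes in the cytoplasmic tail of CD28, and what DKI carries is not given in the labels. The labels give no promoter or Cre for the loss of Ars2 and do not say whether each library came from 1 mouse. All p-values rest on the spread among libraries, which may be technical. The mutant groups that held both sex patterns, described below, include RNA of more than 1 mouse. WT and DKI groups each showed a single pattern, which does not settle it.

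Mitochondrial ribosomes translate the small set of membrane proteins of the respiratory chain and ATP synthase that mitochondrial DNA encodes. Their ribosomal RNAs come from mitochondrial DNA, while all of their proteins are encoded in the nucleus, made in the cytosol and imported. Some of these proteins are homologues of bacterial ribosomal proteins and others are found only in mitochondria. T cells enlarge their mitochondria and raise respiration as they leave the resting state and begin to divide.

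Libraries held 8348946 to 47762625 expected counts in total, and each gene of the set had between 40 and 3244 counts in each library. All 6 DKI libraries and WT number 4 of both days held 8348946 to 10620034, whereas every other library, WT number 1 of both days included, held 15686963 to 47762625, so DKI is matched in depth by WT number 4 and the other mutants by WT number 1. Srrt, the gene for ARS2, measured 33.8, 64.8 and 33.5 CPM in Ars2 KO against 244 and 131 CPM in WT at day 1, and 108, 146 and 105 CPM in Ars2 KO against 245 and 145 CPM in WT at day 3. The transcript was thus lower in each Ars2 KO library at day 1, whereas at day 3 the library labelled Ars2 KO number 2 lay level with WT number 4. Cd28 measured 482 and 476 CPM in the libraries labelled CD28 KO against 387 and 411 CPM in WT at day 1, and 212 and 214 CPM against 474 and 587 CPM in WT at day 3, so the transcript does not bear out that label at day 1. Both unstimulated libraries had a female pattern of sex-linked transcripts and all stimulated WT and DKI libraries a male one, while each other mutant group held both. The sums of markers, mitochondrial ribosomal RNA and mitochondrially encoded messenger RNA are CPM of total counts. They omit the scaling factors (TMM) applied to the CPM of the genes of the set. T cell markers (8 genes) summed to 1525.1 to 2454.8 CPM in every library. B cell markers (8 genes) summed to 700 and 674 CPM in unstimulated WT, to 106 and 74.5 CPM in the libraries labelled CD28 KO at day 1 and to between 6.57 and 109 CPM in the other stimulated libraries. Mitochondrial ribosomal RNA took 171760 and 175240 CPM in unstimulated WT and 34.0 to 1799.7 CPM in stimulated libraries.

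The set made up a small share of these transcriptomes, between 0.151 and 0.269% of all counts. The lowest share was that of unstimulated WT number 2, whose total includes the mitochondrial ribosomal RNA given above. Levels of different genes are compared here per kilobase of exon (CPM per kb, mean over the 34 libraries). The highest were Mrpl18, a homologue of the bacterial large-subunit protein that binds 5S rRNA, at 46.7 CPM per kb, the small-subunit gene Mrps21 at 34.9, the stalk gene Mrpl12 at 32.1 and Mrpl24 at 31.0. The lowest were Mrpl32 at 3.27 CPM per kb, Mrpl48 at 3.43, Mrpl17 at 3.77 and Mrps35 at 3.99. By structure, 51 of the proteins belong to the large subunit and 26 to the small one. The names mislead for Mrps18a and Mrps30, which sit in the large subunit. Mrps36 is not in solved structures of the mitochondrial ribosome and is counted with neither subunit, but it stays among the 78. The genes lie on 17 chromosomes. Of the 78, 33 share exon sequence with another annotated gene, and since the strand setting of the counting is not stated, reads of such pairs may have been counted for either.

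Individual genes of the set differed in how far they moved. Across the 13 groups, the highest group mean exceeded the lowest by a median of 2.21-fold, and 49 genes exceeded 2-fold. Mrps6, a homologue of the bacterial small-subunit protein S6, ranged most, 4.26-fold, with group means of 25.6 CPM in WT at day 1, the highest, and 6.01 CPM in unstimulated WT, the lowest. Mrpl42 (4.09-fold), Mrpl18 (4.0), Mrpl12 (3.80) and Mrpl20 (3.49) followed. Mrpl33 (1.33-fold), Mrps35 (1.38), Mrps9 (1.40) and Mrpl58 (1.41) varied least. For 63 of the 78 genes the lowest group mean was that of the libraries labelled CD28 KO at day 1. The highest group mean was that of CD28 AYAA at day 3 for 25 genes and of DKI at day 3 for 20.

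The summed level of all 78 genes shows where the groups stood. At day 1 it was 2298.5 ± 202 CPM in Ars2 KO (SD, n = 3), 1986.7 ± 85.3 in CD28 AYAA (n = 3), 1758.2 ± 18.2 in DKI (n = 3), 1415.2 ± 46.1 in the libraries labelled CD28 KO (n = 2) and 2362.1 ± 62.8 in CD28 Y170F (n = 3), against 2399.1 ± 227 in WT (n = 2). At day 3 it was 2402.1 ± 339 in Ars2 KO, 2578.6 ± 102 in CD28 AYAA, 2559.8 ± 33.3 in DKI, 2273.9 ± 38.6 in the libraries labelled CD28 KO and 2006.5 ± 362 in CD28 Y170F, against 2119.0 ± 210 in WT, with the same n. Unstimulated WT had 1864.2 ± 41.2 CPM (n = 2). At day 1 the libraries labelled CD28 KO (1382.6 and 1447.8 CPM) lay below both unstimulated libraries (1893.3 and 1835.0), the DKI libraries (1739.1, 1775.4 and 1760.0) lay just below them, and neither group overlapped WT at day 1 (2559.9 for number 1 and 2238.3 for number 4). CD28 Y170F at day 3 was uneven, with 2418.8 CPM in library 1 and 1860.1 and 1740.5 in libraries 2 and 3. The Mrpl and Mrps sums moved together, and their ratio at day 1 was 1.67 in CD28 AYAA, 1.65 in DKI, 1.62 in the libraries labelled CD28 KO and 1.74 to 1.75 in the other day 1 groups, against 1.73 in unstimulated WT. At day 3 the ratio was higher, at 1.77 to 1.85 in the mutant groups against 1.84 in WT. In bulk samples such as these, fewer cells of a type and less of an RNA per cell cannot be told apart.

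**Figure D1:**
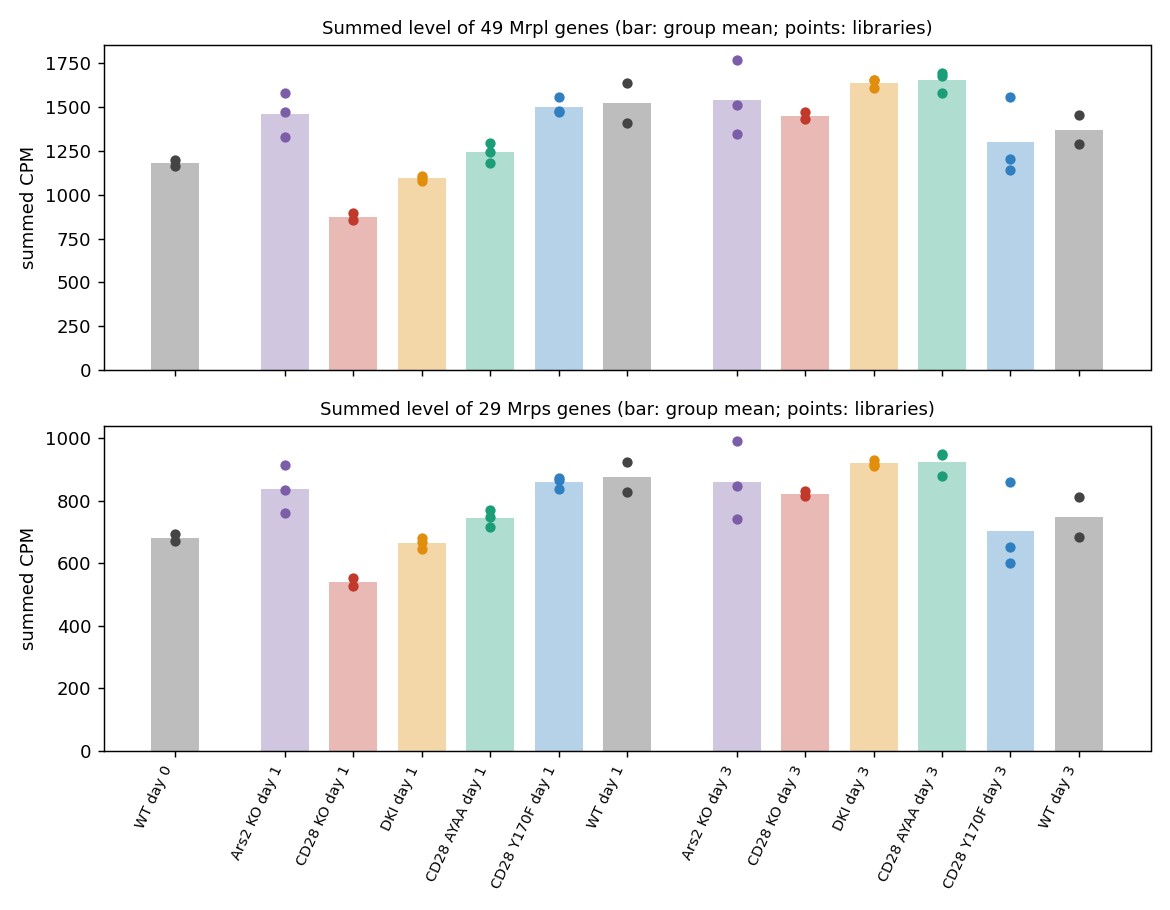
Summed level in CPM of the 49 Mrpl genes (top) and the 29 Mrps genes (bottom) in every group, with bars for group means and points for libraries. The libraries labelled CD28 KO at day 1 are the lowest in both panels, and at day 3 that group lies near the others.

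Against unstimulated WT, more of these genes were called higher than lower in stimulated WT cells on both days. At day 3 the share called higher lay near that of all genes. At day 1 against day 0, 33 of the 78 genes rose and 3 fell (edgeR quasi-likelihood test, Benjamini-Hochberg adjusted p under 0.05 over all genes tested), and the median log2 fold change was 0.38, or -0.02 over all genes. Of all genes tested, 24.2% were called higher and 27.2% lower. At day 3 against day 0, 23 rose and 8 fell, with a median of 0.21 against -0.07 for all genes, where 23.5% of all genes were called higher and 27.0% lower. The day 1 count fell to 19 and the median to 0.20 without WT day 1 number 1, and the day 3 count of 31 fell to 18 without unstimulated number 2 and to 20 without WT day 3 number 1. The stimulated libraries also lost B cell, myeloid and erythroid markers, all 21 of which were called lower at both days, and differed in sex pattern and in mitochondrial ribosomal RNA, as given above. The part of these in the differences was not tested.

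Mrps6 (ENSMUSG00000039680.9, chromosome 16, 92058270 to 92112227, plus strand, GRCm38) had 6.27 and 5.76 CPM in WT at day 0, 24.8 and 26.4 CPM at day 1 and 9.55 and 10.4 CPM at day 3. Its values did not overlap between any 2 of the 3 groups, and its log2 fold change at day 1 was 2.08 (SE 0.19, adjusted p = 3.0e-09, edgeR). The transcript shares 19.9% of its exon bases with Gm49711 and 10.4% with Slc5a3, both on the same strand. Mrpl12 (ENSMUSG00000039640.7, chromosome 11, 120484613 to 120489065, plus strand), which encodes the flexible stalk that recruits translation factors, had 16.8 and 20.1 CPM at day 0, 73.1 and 57.5 CPM at day 1 and 44.6 and 29.8 CPM at day 3. Both stimulated days lay above day 0, with log2 fold changes of 1.83 (SE 0.28, adjusted p = 5.6e-06, edgeR) at day 1 and 1.02 (SE 0.27, adjusted p = 0.003) at day 3.

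Other rises at day 1 were those of Mrpl14, a homologue of the bacterial protein L14 at the subunit interface (log2 0.96, SE 0.18, adjusted p = 0.00011, edgeR), and Mrps18b, 1 of the 3 S18 paralogues of mitochondria (0.90, SE 0.27, adjusted p = 0.0066). Mrpl14 had 5.39 and 5.29 CPM at day 0, 11.4 and 9.22 CPM at day 1 and 11.4 and 11.4 CPM at day 3. By day 3, Mrpl27 (25.7 and 19.2 CPM against 11.7 and 10.4 CPM at day 0) and Mrps18c (28.5 and 19.7 CPM against 13.4 and 11.9 CPM) stood above day 0 without overlap, with log2 fold changes of 1.03 (adjusted p = 5.2e-05) and 0.95 (adjusted p = 7.4e-05). A minority of the genes fell. Mrps26, a small-subunit protein found only in mitochondria, had 38.9 and 34.2 CPM at day 0, 24.7 and 23.5 CPM at day 1 and 24.1 and 26.4 CPM at day 3 (log2 against day 0 of -0.60 at day 1 and -0.54 at day 3, adjusted p = 0.0017 and 0.0045). Mrpl57 (-0.54, adjusted p = 0.0075) and Mrps17 (-0.29, adjusted p = 0.03) also fell at day 1. At day 3 the falls were those of Mrpl23 (-0.71, adjusted p = 0.0014), Mrpl52 (-0.67, adjusted p = 0.0014), Mrpl17 (-0.56, adjusted p = 0.022), Mrpl24 (-0.51, adjusted p = 3.8e-06) and Mrps17 (-0.41, adjusted p = 0.0033), among others. Without 1 library, the day 1 call of Mrps17 was lost in 3 of 4 refits and the day 3 calls of Mrpl17 and Mrps26 in 2 of 4 each.

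Against the same unstimulated WT libraries, which all of these comparisons share, the mutant groups spread widely at day 1. In Ars2 KO, 33 genes rose and 1 fell at day 1 (25.7 and 28.0% of all genes, edgeR) and 47 rose and 2 fell at day 3 (27.3 and 29.6%), with medians of 0.34 and 0.40. In the libraries labelled CD28 KO, 2 rose and 50 fell at day 1 (21.1 and 31.1% of all genes), with a median of -0.55, and 29 rose and 3 fell at day 3 (24.1 and 28.0%), with a median of 0.29. In DKI, 5 rose and 16 fell at day 1 (21.7 and 27.5% of all genes), with a median of -0.17, and 52 rose and 2 fell at day 3 (26.3 and 31.8%), with a median of 0.47. In CD28 AYAA, 15 rose and 9 fell at day 1 (23.8 and 26.2%), with a median of 0.04, and 53 rose and 2 fell at day 3 (27.8 and 32.3%), with a median of 0.48. In CD28 Y170F, 36 rose and 3 fell at day 1 (25.8 and 28.9%), with a median of 0.38, and 21 rose and 12 fell at day 3 (25.3 and 28.5%), with a median of 0.15. The counts in both directions together depended on single libraries in several cases. Without unstimulated number 1 or number 2, the counts fell to 20 or 18 for Ars2 KO at day 1, to 21 or 18 for the libraries labelled CD28 KO at day 3 and to 14 or 15 for CD28 AYAA at day 1. The count for Ars2 KO at day 3 fell to 27 without unstimulated number 2 and to 31 without Ars2 KO number 2, that for the libraries labelled CD28 KO at day 3 to 17 without library 1, and that for CD28 Y170F at day 3 to 21 without unstimulated number 1.

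**Figure D2:**
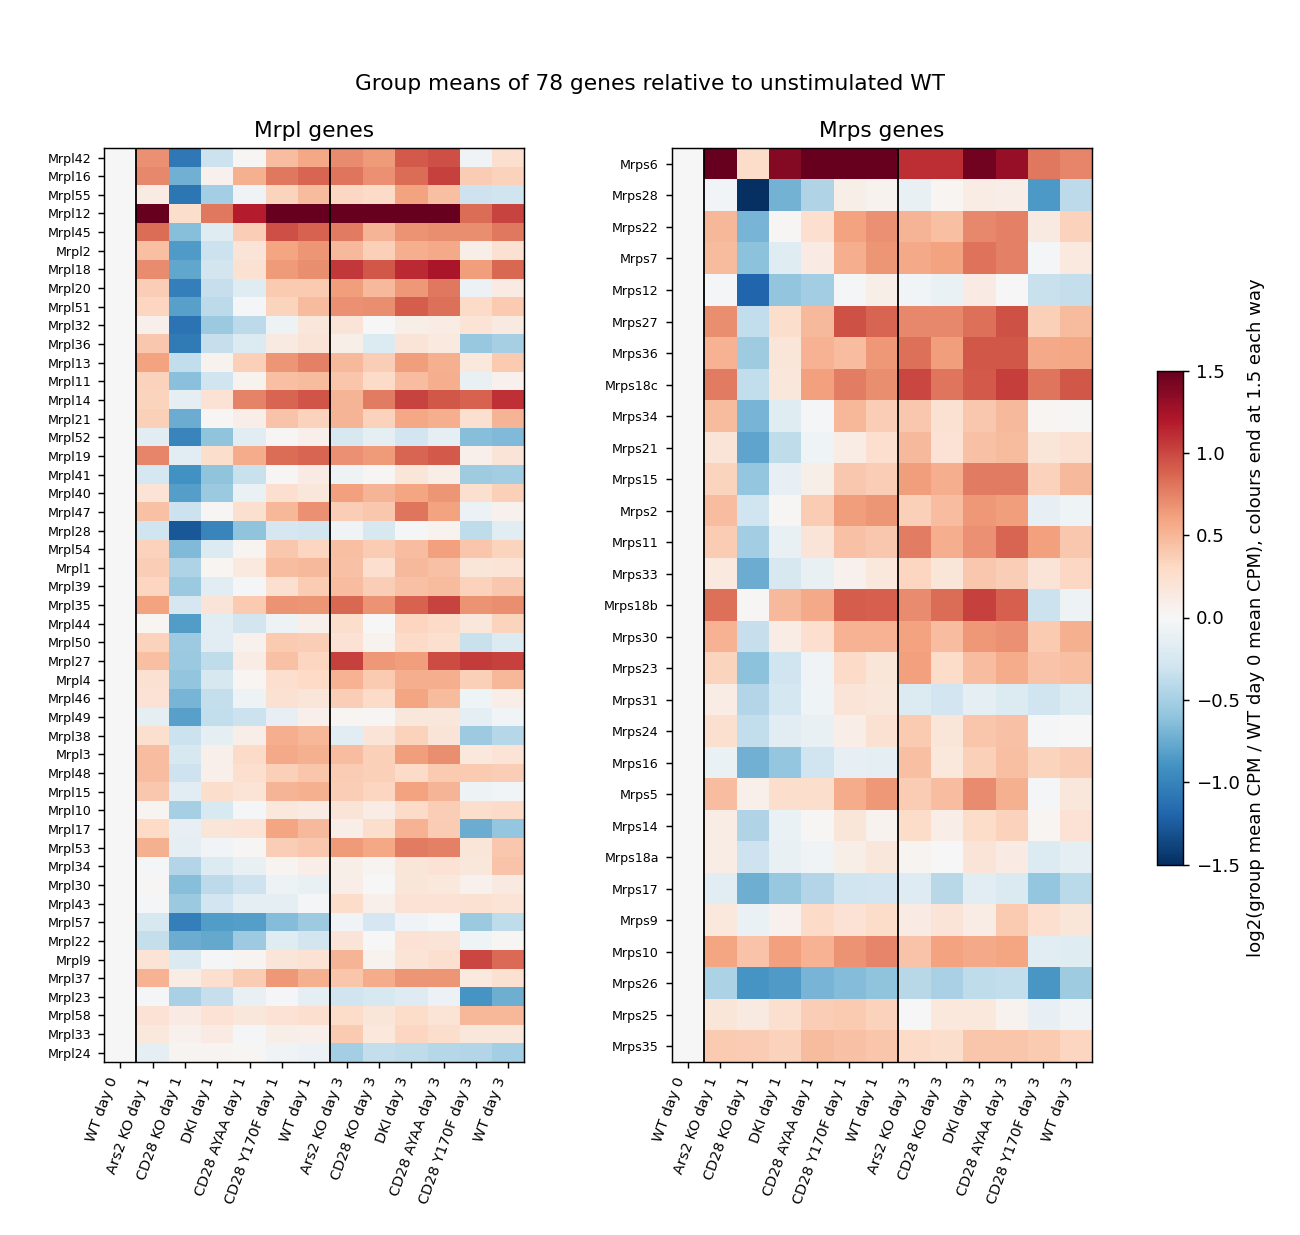
Colour gives log2 of the group mean CPM over the mean of unstimulated WT for each Mrpl gene (left) and Mrps gene (right), with 1 column per group and colours ending at 1.5 in either direction. The column of the libraries labelled CD28 KO at day 1 is blue for most genes, and the day 3 columns of DKI and CD28 AYAA are red for most.

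The widest difference from WT of the same day was that of the libraries labelled CD28 KO at day 1. Of the 78 genes, 70 fell and 0 rose (edgeR, adjusted p under 0.05), against 24.7% of all genes tested that were called lower. DESeq2 and limma-voom also called 70 lower and 0 higher, and the 70 genes with an unadjusted p under 0.05 were the same 70 falls. The median log2 fold change was -0.92, against 0.02 for all genes, with a range of -1.81 to 0.12, and 77 of the 78 values were negative. The count was also 70, with a median of -1.02, when WT number 1, of the same depth class, stood alone for WT, and the median was -0.72 without it. Both subunits took part, with 45 of 49 Mrpl genes (median -0.93) and 25 of 29 Mrps genes (median -0.89) lower. Among large-subunit proteins, 26 of 29 homologues of bacterial proteins and 21 of 22 proteins found only in mitochondria were lower, and among small-subunit proteins 15 of 16 and 7 of 10 were lower. Of the 45 genes that share no exon sequence with another gene, 42 were lower. B cell markers were higher in the same comparison, 5 of 8 called, with sums of 106 and 74.5 CPM in the libraries labelled CD28 KO and 23.6 and 9.51 CPM in WT. None of the 8 was at 0. T cell markers summed to 1981.2 and 1864.8 CPM against 1725.0 and 1858.0 CPM in WT, with 1 of 8 called lower. The scaling factors omitted from these sums were 1.109 and 1.083 in the libraries labelled CD28 KO and 1.052 and 1.042 in WT. Dividing by them would lower the former sums more, so the T cell sums are not read as a difference. The part of B cell RNA in the result was not tested.

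**Figure D3:**
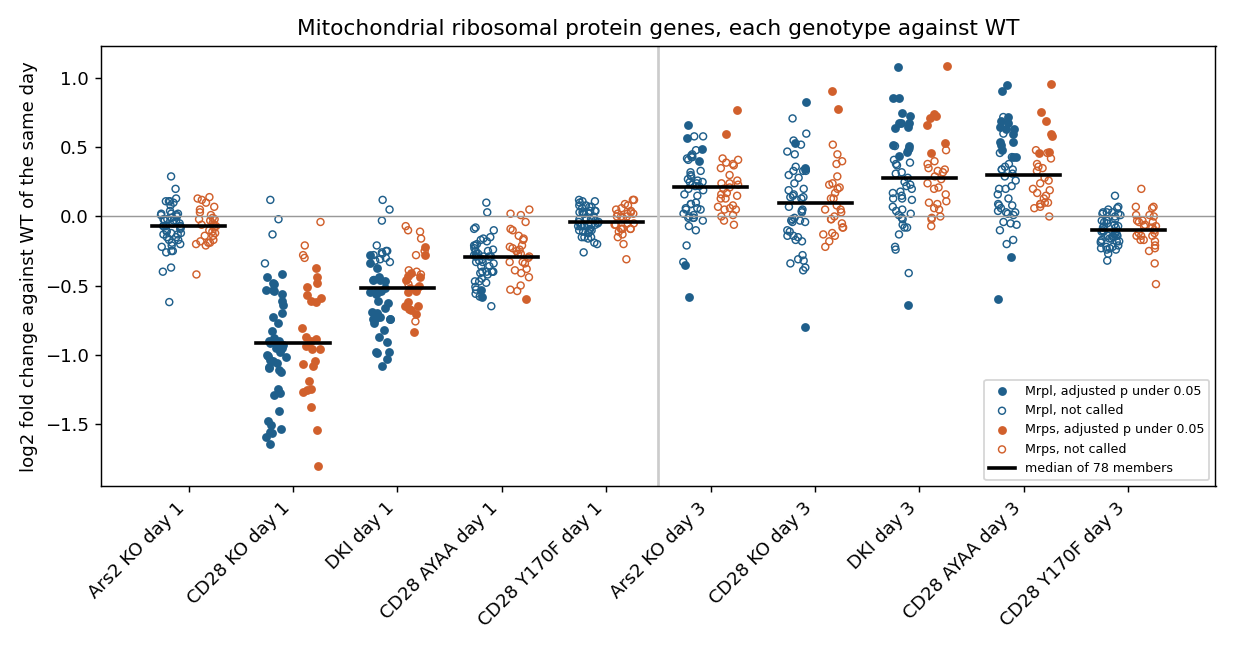
Log2 fold change of each gene against WT of the same day, by genotype, with Mrpl genes in blue and Mrps genes in orange, filled where the adjusted p was under 0.05, and a line at the median of the 78 genes. The day 1 values of the libraries labelled CD28 KO lie lowest, followed by DKI and CD28 AYAA, and the day 3 medians lie at or above 0 in all groups but CD28 Y170F.

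Mrps6 fell most, to 7.19 and 7.39 CPM in the libraries labelled CD28 KO against 24.8 and 26.4 CPM in WT at day 1 (log2 -1.81, SE 0.20, adjusted p = 1.3e-07, edgeR). These values lie just above those of unstimulated WT and far below every other stimulated day 1 library, the lowest of which had 14.8 CPM. Mrpl42 (ENSMUSG00000062981.4, chromosome 10, 95480805 to 95501940, minus strand), a large-subunit protein found only in mitochondria, had 8.05 and 10.4 CPM against 33.1 and 24.6 CPM in WT (-1.65, SE 0.27, adjusted p = 2.4e-05). Mrpl16 (ENSMUSG00000024683.5, chromosome 19, 11770391 to 11774960, plus strand), a homologue of a bacterial protein near the peptidyl transferase centre, had 7.08 and 8.67 CPM against 27.4 and 20.2 CPM (-1.60, SE 0.20, adjusted p = 1.1e-06). For Mrpl42 and Mrpl16 the values were also below those of unstimulated WT, which were 19.8 and 18.9 CPM and 13.2 and 12.7 CPM. Mrpl55 (ENSMUSG00000036860.14, chromosome 11, 59202486 to 59206134, plus strand), another large-subunit protein found only in mitochondria, had 3.97 and 3.13 CPM against 11.1 and 9.86 CPM (-1.57, SE 0.31, adjusted p = 0.00024). These 4 genes were named for the largest called falls here, a choice that favours a lack of overlap, and none overlapped between the groups.

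Of the 8 genes not called, 4 hardly differed. Mrpl24 (ENSMUSG00000019710.13, chromosome 3, 87919506 to 87923672, plus strand), a homologue of a bacterial protein that begins large-subunit assembly, had 80.7 and 84.7 CPM in the libraries labelled CD28 KO against 78.8 and 73.1 CPM in WT (log2 0.12, adjusted p = 0.20, edgeR). It was called higher, at 0.23 with an adjusted p of 0.013, when only nuclear protein-coding genes entered the fit. Its exons share 26.3% of their bases with Rrnad1 on the opposite strand. Mrpl33 had 48.4 and 46.8 CPM against 51.0 and 45.2 CPM in WT (-0.02, adjusted p = 0.91). Mrps35 had 34.8 and 34.7 CPM against 34.7 and 36.8 CPM (-0.04, adjusted p = 0.77). Mrpl58, a release factor that became a part of the large subunit, had 27.6 and 30.1 CPM against 28.5 and 34.7 CPM (-0.13, adjusted p = 0.39). The groups overlapped for Mrpl33, Mrps35 and Mrpl58, which are also among the genes that varied least over all groups.

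**Figure D4:**
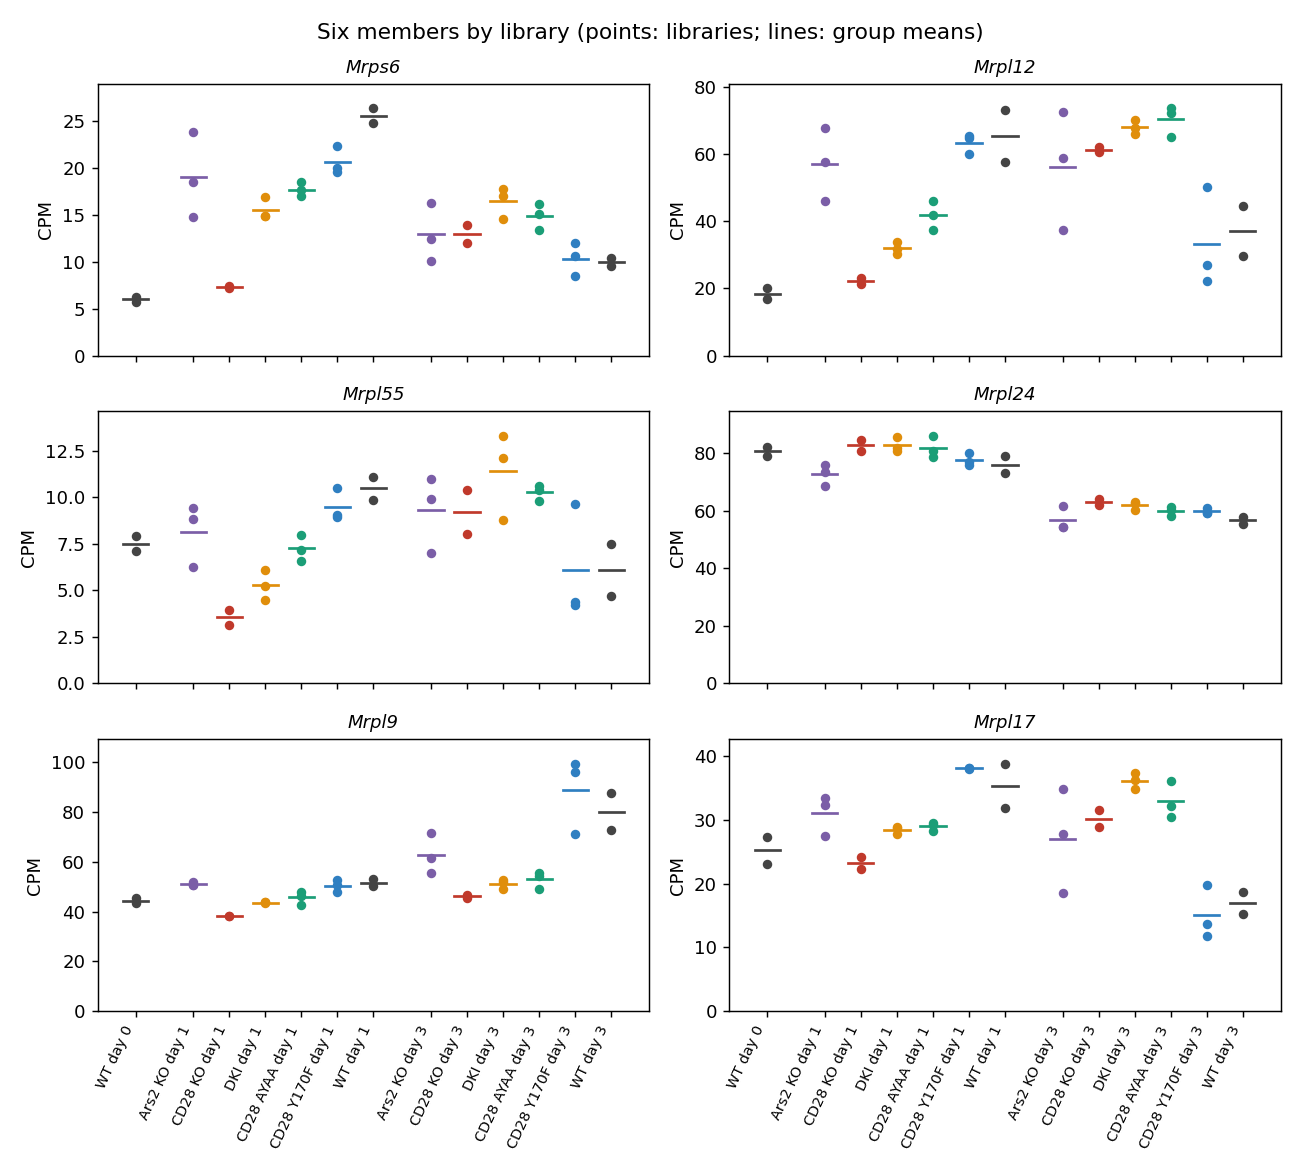
CPM of Mrps6, Mrpl12, Mrpl55, Mrpl24, Mrpl9 and Mrpl17 in every library (points) with group means (lines), day 0 first, then day 1 and day 3. Mrps6, Mrpl12 and Mrpl55 are lowest among day 1 groups in the libraries labelled CD28 KO, Mrpl24 is nearly level within each day, and at day 3 Mrpl9 and Mrpl17 split the groups in opposite directions.

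Since most of these genes moved together at day 1, the sequence before their starts was searched for the letters of known promoter motifs in RefSeq windows (GRCm38.p6, 300 bases, from 250 before to 50 after the start), on both strands. Windows were matched for 69 of the 78 genes, 75 windows in all. CCGGAAG, the core that ETS factors such as GABP bind, occurred in 34.7% of these windows, against 8.9% of all RefSeq windows and 11.6% of those of coding genes. GCGC followed after any 2 bases by GCGC, the palindromic core bound by NRF1, occurred in 18.7%, against 6.2 and 8.6%. AAGATGGC, a YY1 motif, occurred in 16.0%, against 2.7 and 3.1%. CACGTG, the E-box bound by MYC, occurred in 9.3%, against 7.2 and 7.8%, and TATAAA in 6.7%, against 13.6 and 12.6%. No motif searched contains another. The 120 bases before the start are shown for the genes with a single window that fell most at day 1 in the libraries labelled CD28 KO among those with the ETS letters within these 120 bases (Mrps22 and Mrpl51) and among those with the NRF1 letters there (Mrpl12 and Mrpl45), read 5′ to 3′ on the strand of the gene, with the motif in capitals. They lie at chr9:98601680-98601799 (minus strand), chr6:125192080-125192199 (plus), chr11:120484517-120484636 (plus) and chr11:97315596-97315715 (plus).
Mrps22: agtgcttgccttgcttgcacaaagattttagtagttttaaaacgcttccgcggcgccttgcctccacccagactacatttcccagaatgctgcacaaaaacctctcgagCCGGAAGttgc
Mrpl51: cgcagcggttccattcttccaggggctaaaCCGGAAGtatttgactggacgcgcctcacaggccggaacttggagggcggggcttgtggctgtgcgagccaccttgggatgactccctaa
Mrpl12: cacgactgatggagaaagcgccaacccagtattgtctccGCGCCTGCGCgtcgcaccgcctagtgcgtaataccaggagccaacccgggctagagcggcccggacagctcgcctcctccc
Mrpl45: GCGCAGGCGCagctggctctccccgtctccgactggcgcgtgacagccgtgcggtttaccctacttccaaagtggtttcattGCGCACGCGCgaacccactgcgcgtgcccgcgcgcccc
The log2 fold changes of these genes in the libraries labelled CD28 KO against WT at day 1 were -1.38 for Mrps22, -1.29 for Mrpl51, -1.56 for Mrpl12 and -1.54 for Mrpl45. A match is a run of letters in the reference sequence and not a measured binding site. Mrps6, Mrpl42, Mrpl16 and Mrpl55, which fell most there, had no ETS or NRF1 letters in the 120 bases before the start. ETS letters also lay there in genes that moved little, such as Mrpl58 (-0.13) and Mrps26 (-0.28). Whether matches go with the size of the fall was not tested.

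DKI at day 1 moved the same way by less. Of the 78 genes, 53 fell and 0 rose against WT of day 1 (edgeR), against 15.8% of all genes called lower, and 65 had an unadjusted p under 0.05. DESeq2 called 53 lower and limma-voom 45, and both called 0 higher. The median was -0.52, against 0.00 for all genes, and 76 values were negative. This count rests on WT number 1: without it, against WT number 4 of the same depth class alone, 2 genes were called and the median was -0.29, and without DKI number 1 the count was 32. T cell markers were higher in the same comparison, 5 of 8 called, with sums of 2047.9, 2205.6 and 2080.8 CPM in DKI and 1725.0 and 1858.0 CPM in WT. Their part in the result was not tested.

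Mrpl45 (ENSMUSG00000018882.12, chromosome 11, 97315716 to 97329920, plus strand), which sits at the exit of the nascent chain and helps to hold the ribosome at the inner membrane, fell most in DKI. It had 21.5, 18.5 and 17.7 CPM in DKI against 44.3 and 36.6 CPM in WT at day 1, without overlap (log2 -1.08, SE 0.15, adjusted p = 1.1e-05, edgeR). Against WT number 4 alone its value was -0.88 (adjusted p = 0.0061). Mrpl12 had 33.8, 30.4 and 31.7 CPM against 73.1 and 57.5 CPM (-1.03, SE 0.25, adjusted p = 0.0037), Mrpl55 had 6.09, 4.48 and 5.23 CPM against 11.1 and 9.86 CPM (-0.99, SE 0.28, adjusted p = 0.012), and Mrpl2, a core protein of the peptidyl transferase region, had 12.8, 15.2 and 12.9 CPM against 28.5 and 25.3 CPM (-0.98, SE 0.19, adjusted p = 0.00067). These 3 genes were also named for the size of their called falls, and all their DKI values lay below both WT values. Against WT number 4 alone they were -0.80, -0.85 and -0.85, with adjusted p of 0.14, 0.18 and 0.055. The genes that moved least and were not called were Mrps25 (-0.10), Mrps35 (-0.07), Mrpl58 (-0.03) and Mrpl33 (0.05), 3 of which were named above for the libraries labelled CD28 KO. The 2 comparisons share the WT libraries.

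In CD28 AYAA at day 1, 3 genes fell and 0 rose (edgeR), against 2.00% of all genes called lower, while 32 had an unadjusted p under 0.05 and DESeq2 called 8. The median was -0.29, against 0.03 for all genes, and 73 of the 78 values were negative. The count was 0 without any 1 of the CD28 AYAA libraries or without WT number 1, and 6 without WT number 4. Mrps12, a homologue of a bacterial protein of the decoding site, had 9.21, 9.74 and 9.94 CPM in CD28 AYAA against 13.5 and 15.9 CPM in WT (log2 -0.60, SE 0.16, adjusted p = 0.037). Mrpl32, which is cut by a mitochondrial protease before it joins the large subunit, had 12.4, 13.1 and 12.7 CPM against 21.3 and 16.5 CPM (-0.58, SE 0.15, adjusted p = 0.033). Mrpl45 had 24.8, 32.1 and 27.6 CPM against 44.3 and 36.6 CPM (-0.53, SE 0.14, adjusted p = 0.043). All 3 genes, named because they were called, were below WT in each CD28 AYAA library. Leaving out 1 library ended the call of Mrps12 in 5 of 5 refits and those of Mrpl32 and Mrpl45 in 4 of 5 each. Against WT number 1 alone, of the same depth class, the values were -0.49 for Mrps12, -0.74 for Mrpl32 and -0.65 for Mrpl45.

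In Ars2 KO and CD28 Y170F at day 1, none of the 78 genes was called against WT. For Ars2 KO, edgeR called 0 genes and 3 had an unadjusted p under 0.05, DESeq2 called 1, and limma-voom called 0, while 0.399% of all genes were called in either direction, with a median of -0.07. For CD28 Y170F, edgeR, DESeq2 and limma-voom called 0 genes, 0 had an unadjusted p under 0.05 and 0.0547% of all genes were called, with a median of -0.04. Mrps6 shows the spread behind these counts, with 14.8, 18.5 and 23.9 CPM in Ars2 KO and 19.6, 20.0 and 22.4 CPM in CD28 Y170F, against 24.8 and 26.4 CPM in WT. The Ars2 KO libraries were uneven over the whole set, with sums of 2091.4, 2309.0 and 2495.1 CPM.

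Mutants were also compared with each other at day 1. Between DKI and the libraries labelled CD28 KO, 14 genes were higher in DKI and 0 lower (edgeR), against 6.30% of all genes called higher, with a median of 0.36 and 41 genes at an unadjusted p under 0.05. The count was 2 or 6 without library 1 or 2 labelled CD28 KO, and 5, 8 or 9 without DKI number 1, 2 or 3. limma-voom called 4 and DESeq2 called 20. DKI libraries were the shallower ones, and no comparison within 1 depth class exists for this pair. Mrps6 had 14.9, 14.9 and 16.9 CPM in DKI against 7.19 and 7.39 CPM in the libraries labelled CD28 KO (log2 1.09, SE 0.19, adjusted p = 0.00058). Mrpl16 had 12.6, 14.8 and 13.3 CPM against 7.08 and 8.67 CPM (0.78, SE 0.20, adjusted p = 0.013), and Mrpl21 had 21.8, 22.1 and 19.7 CPM against 12.1 and 13 CPM (0.75, SE 0.15, adjusted p = 0.0018). These 3 were named for the largest called rises here, and none overlapped.

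Between CD28 AYAA and CD28 Y170F at day 1, 3 genes were lower in CD28 AYAA and 0 higher (edgeR), against 2.18% of all genes called lower, with a median of -0.27 and 34 genes at an unadjusted p under 0.05. The share called lower was near that of all genes. DESeq2 called 6 genes and a fit confined to this pair of groups called 35. Without single libraries the count was 0 (CD28 AYAA number 1) or 1 (CD28 AYAA number 2 or 3, CD28 Y170F number 1 or 2). Mrpl45 had 24.8, 32.1 and 27.6 CPM in CD28 AYAA against 42.6, 42.9 and 42.5 CPM in CD28 Y170F (log2 -0.60, SE 0.13, adjusted p = 0.011). Mrps34, a small-subunit protein found only in mitochondria, had 17.8, 18.5 and 18.9 CPM against 24.4, 27.6 and 27.8 CPM (-0.53, SE 0.14, adjusted p = 0.032), and 63.4% of its exon bases are shared with Mapk8ip3 on the opposite strand and 37.0% with Nme3 on the same strand. Mrps12 had 9.21, 9.74 and 9.94 CPM against 15.1, 14.1 and 12.0 CPM (-0.51, SE 0.14, adjusted p = 0.039), and with the replicate number as a block its value was -0.50 with an adjusted p of 0.051. All 3 were named because they were called here, and their CD28 AYAA values lay below every CD28 Y170F value.

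At day 3 the picture against WT differed. In DKI, 21 genes rose and 1 fell (edgeR, 10.3 and 13.1% of all genes), with a median of 0.28, and in CD28 AYAA 22 rose and 2 fell (10.4 and 11.3%), with a median of 0.30. In Ars2 KO, 6 rose and 2 fell (6.60 and 6.27% of all genes), with a median of 0.21, and in the libraries labelled CD28 KO 5 rose and 1 fell (8.57 and 11.5%), with a median of 0.10. Both of these groups had a share called higher near that of all genes. In CD28 Y170F, edgeR, DESeq2 and limma-voom called 0 genes and 1 had an unadjusted p under 0.05, while 0.0273% of all genes were called, with a median of -0.10. The all-gene medians lay between -0.02 and 0.02. These counts depend on the 2 WT libraries, which differ in depth. Without WT number 4, the count in both directions was 0 for Ars2 KO, 2 for the libraries labelled CD28 KO and 6 for DKI, and it was 4 for CD28 AYAA. DKI is the group that shares the depth of WT number 4, and against that library alone 23 genes were called with a median of 0.38. Leaving out Ars2 KO number 1, 2 or 3 gave 2, 1 or 20 genes for that group, so its day 3 count rests on number 1 as well as on number 2. The Srrt level overlapped WT in the library labelled Ars2 KO number 2 but not in number 1. Leaving out either library labelled CD28 KO gave 3, and leaving out CD28 AYAA number 2 gave 13. Without CD28 Y170F number 1, the library with the highest sum, 11 genes were called in that group, all lower. T cell markers were lower than in WT at day 3, with 5 of 8 called in Ars2 KO, 7 in the libraries labelled CD28 KO, 8 in DKI and 6 in CD28 AYAA, and their part in the differences was not tested.

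Mrps18b and Mrpl17 had the largest called rises in each group with calls, all measured against the same WT libraries. Mrps18b (ENSMUSG00000024436.16, chromosome 17, 35910379 to 35916389, minus strand) had 33.6, 47.1 and 25.8 CPM in Ars2 KO, 38.2 and 39.7 in the libraries labelled CD28 KO, 44.3, 45.6 and 42.7 in DKI and 36.1, 44.3 and 40.8 in CD28 AYAA, against 23.2 and 17.9 CPM in WT at day 3. All of these libraries lay above WT, whereas CD28 Y170F, with 28.4, 11.6 and 12.2 CPM, lay on both sides of it. Log2 fold changes came to 0.77 (SE 0.25, adjusted p = 0.045, edgeR) in Ars2 KO, 0.91 (SE 0.27, adjusted p = 0.02) in the libraries labelled CD28 KO, 1.09 (SE 0.26, adjusted p = 0.0031) in DKI and 0.96 (SE 0.26, adjusted p = 0.0083) in CD28 AYAA. Against WT number 1 alone, of the same depth class, the call was lost in Ars2 KO (adjusted p = 0.33), in the libraries labelled CD28 KO (0.17) and in CD28 AYAA (0.15), and in DKI, against WT number 4 alone, the adjusted p was 0.012. Leaving out 1 library ended the call in 4 of 5 refits for Ars2 KO and in 3 of 4 for the libraries labelled CD28 KO. Its exons share 30.5% of their bases with an antisense gene, Gm16279.

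Mrpl17 (ENSMUSG00000030879.10, chromosome 7, 105803206 to 105811099, minus strand), a homologue of the bacterial protein L17, followed the same order. It had 27.7, 34.8 and 18.5 CPM in Ars2 KO, 31.5 and 28.9 in the libraries labelled CD28 KO, 34.9, 37.3 and 36.2 in DKI and 32.1, 36.1 and 30.5 in CD28 AYAA, against 18.6 and 15.2 CPM in WT at day 3. Only Ars2 KO number 3 lay within the WT values, and CD28 Y170F had 19.8, 13.6 and 11.8 CPM. Log2 fold changes came to 0.66 (SE 0.19, adjusted p = 0.021) in Ars2 KO, 0.83 (SE 0.20, adjusted p = 0.0051) in the libraries labelled CD28 KO, 1.08 (SE 0.19, adjusted p = 0.00022) in DKI and 0.95 (SE 0.19, adjusted p = 0.00085) in CD28 AYAA, all by edgeR. Against WT number 1 alone the adjusted p was 0.23 in Ars2 KO, 0.071 in the libraries labelled CD28 KO and 0.037 in CD28 AYAA. The comparisons share the WT libraries.

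Mrps10, a small-subunit protein of the head region, rose in Ars2 KO (log2 0.60, SE 0.15, adjusted p = 0.0092, edgeR), in the libraries labelled CD28 KO (0.78, SE 0.16, adjusted p = 0.0012) and in CD28 AYAA (0.76, SE 0.15, adjusted p = 0.0007). It had 33.8, 41.6 and 26.5 CPM in Ars2 KO, 36.3 and 40.8 in the libraries labelled CD28 KO and 36.8, 39.5 and 38.2 in CD28 AYAA, against 24.1 and 20.7 CPM in WT. Mrpl12 was higher in DKI (67.8, 70.1 and 65.9 CPM; log2 0.86, SE 0.25, adjusted p = 0.015) and in CD28 AYAA (65.2, 72.1 and 73.6 CPM; 0.91, SE 0.25, adjusted p = 0.011), against 44.6 and 29.8 CPM in WT. Mrpl55 rose in DKI, with 12.1, 13.3 and 8.79 CPM against 7.49 and 4.7 CPM in WT (0.86, SE 0.29, adjusted p = 0.029). Mrpl36, a small homologue of a bacterial protein, rose in Ars2 KO, with 28.4, 29.4 and 18.6 CPM against 19.2 and 14.7 CPM (0.57, SE 0.18, adjusted p = 0.038), where the groups overlapped. Mrpl52 rose in the libraries labelled CD28 KO, with 15.9 and 16.3 CPM against 10.9 and 11.5 CPM (0.53, SE 0.16, adjusted p = 0.025), a call that leaving out any 1 of the 4 libraries ended. Against WT number 1 alone the calls of Mrps10 and Mrpl36 in Ars2 KO (adjusted p = 0.16 and 0.37), of Mrpl12 in CD28 AYAA (0.22) and of Mrpl52 (0.073) were lost. Leaving out 1 library ended the calls of Mrpl36 in Ars2 KO and of Mrpl55 in DKI in 3 of 5 refits each.

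Mrpl9 (ENSMUSG00000028140.13, chromosome 3, 94443318 to 94451130, plus strand), a homologue of the elongated bacterial protein L9 near the base of the L1 stalk, went the other way in the same groups. It had 55.4, 61.4 and 71.7 CPM in Ars2 KO, 46.6 and 45.5 in the libraries labelled CD28 KO, 52.5, 52.0 and 49.0 in DKI and 49.0, 55.4 and 54.4 in CD28 AYAA, against 72.7 and 87.6 CPM in WT at day 3. All were below both WT libraries, and CD28 Y170F, with 71.1, 96.1 and 99.4 CPM, was not. Log2 fold changes came to -0.35 (SE 0.11, adjusted p = 0.038, edgeR) in Ars2 KO, -0.80 (SE 0.12, adjusted p = 7.2e-05) in the libraries labelled CD28 KO, -0.64 (SE 0.11, adjusted p = 0.00018) in DKI and -0.60 (SE 0.11, adjusted p = 0.00043) in CD28 AYAA. Day 0 and day 1 WT had 43.3 and 45.3 CPM and 53.1 and 50.1 CPM. Mrpl14 fell in Ars2 KO, with 7.08, 9.24 and 6.52 CPM against 11.4 and 11.4 CPM in WT (-0.58, SE 0.17, adjusted p = 0.021). Mrpl58 fell in CD28 AYAA, with 30.8, 32.1 and 28.5 CPM against 34.0 and 40.6 CPM (-0.29, SE 0.10, adjusted p = 0.043), but was at -0.16 (adjusted p = 0.48) against WT number 1 alone. Against that library the Ars2 KO calls of Mrpl9 (-0.21, adjusted p = 0.46) and Mrpl14 (-0.59, adjusted p = 0.11) were lost too. Leaving out 1 library ended the calls of Mrpl58 and Mrpl14 in 4 of 5 refits each and that of Mrpl9 in Ars2 KO in 3 of 5.

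Between CD28 AYAA and CD28 Y170F at day 3, which uses no WT library, 43 genes were higher in CD28 AYAA and 2 lower (edgeR, 17.6 and 19.2% of all genes), with a median of 0.39 against -0.04 for all genes. The count of 45 fell to 25 without CD28 Y170F number 3, and without CD28 Y170F number 1 it was 59 with a median of 0.62. A fit confined to this pair called 22. Mrps18b (log2 1.21, SE 0.22, adjusted p = 0.00014), Mrpl17 (1.13, SE 0.16, adjusted p = 1.1e-05) and Mrpl12 (1.09, SE 0.22, adjusted p = 0.00039) rose most. Named for the size of this rise, they did not overlap between the groups. They had 36.1 to 44.3, 30.5 to 36.1 and 65.2 to 73.6 CPM in CD28 AYAA and 11.6 to 28.4, 11.8 to 19.8 and 22.2 to 50.2 CPM in CD28 Y170F. Mrpl9 (-0.75, SE 0.10, adjusted p = 4.2e-06) and Mrpl58 (-0.30, SE 0.09, adjusted p = 0.012) were the 2 lower genes, and Mrpl58 had 30.8, 32.1 and 28.5 CPM in CD28 AYAA against 34.1, 38.7 and 39.3 CPM in CD28 Y170F. The call of Mrpl58 was lost in 3 of 6 refits without 1 library. Mrpl43, Mrpl48, Mrpl45 and Mrpl24 differed least. Between DKI and the libraries labelled CD28 KO at day 3, edgeR, DESeq2 and limma-voom called 0 genes, 6 had an unadjusted p under 0.05, a fit confined to this pair called 3, and 0.454% of all genes were called, with a median of 0.18.

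Within genotypes, the change between day 1 and day 3 ran in both directions. In the libraries labelled CD28 KO, 65 genes were higher at day 3 than at day 1 and 1 lower (edgeR, 25.0 and 20.6% of all genes), with a median of 0.83. In DKI, 62 were higher and 1 lower (23.7 and 23.7%), with a median of 0.59, and in CD28 AYAA 50 were higher and 2 lower (21.7 and 23.7%), with a median of 0.42. In Ars2 KO, 7 were higher and 3 lower (13.3 and 10.3%), with a median of 0.09. In CD28 Y170F, 5 were higher and 34 lower (21.1 and 19.2% of all genes), with a median of -0.25, and in WT 3 were higher and 19 lower (15.5 and 14%), with a median of -0.10. The WT count of 22 fell to 12 without WT day 1 number 1 and to 9 without WT day 3 number 4. The CD28 Y170F count of 39 fell to 24 without day 3 number 3, and the Ars2 KO count of 10 fell to 6 without day 1 number 1 or day 3 number 2. Mrpl12 illustrates the 2 courses, with 62.0 and 60.5 CPM at day 3 against 21.3 and 23.0 CPM at day 1 in the libraries labelled CD28 KO, and 50.2, 26.9 and 22.2 CPM at day 3 against 60.0, 64.8 and 65.4 CPM at day 1 in CD28 Y170F.

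The difference between these courses was tested directly, as the change between the days in each mutant minus that in WT. The value was higher than in WT for 66 genes among libraries labelled CD28 KO (20.5% of all genes, edgeR, median 0.97), for 39 in CD28 AYAA (12.3%, median 0.58), for 56 in DKI (17.7%, median 0.80) and for 2 in Ars2 KO (1.91%, median 0.23). By edgeR, DESeq2 and limma-voom it was lower for 0 genes in each, while 1 gene was lower in DKI and in CD28 AYAA when only nuclear protein-coding genes entered the fit, and 1 in DKI in a fit to the groups compared. In CD28 Y170F edgeR, DESeq2 and limma-voom called 0 genes, 0 had an unadjusted p under 0.05 and 0.00% of all genes were called, with a median of -0.08. Against the WT libraries of the same depth class, the counts in both directions were 13 in CD28 AYAA, 36 in DKI (35 higher and 1 lower), 55 in the libraries labelled CD28 KO and 0 in Ars2 KO. Without WT day 1 number 1 the counts were 28 in DKI and 12 in CD28 AYAA, and without WT day 3 number 4 they were 34 and 12. The Ars2 KO count of 2 was 5 or 10 without Ars2 KO number 3 of day 1 or of day 3, 0 without number 1 or 2 of either day, and 0, 1 or 0 without WT day 1 number 1, WT day 1 number 4 or WT day 3 number 4.

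Mrpl12 had the highest value in the libraries labelled CD28 KO (log2 2.27, SE 0.39, adjusted p = 7.0e-05, edgeR), in DKI (1.89, SE 0.35, adjusted p = 0.00024) and in CD28 AYAA (1.55, SE 0.35, adjusted p = 0.0023). Mrps6 (2.19, SE 0.28, adjusted p = 3.1e-06) and Mrpl55 (2.12, SE 0.43, adjusted p = 0.00044) came next in the libraries labelled CD28 KO. In DKI, Mrpl55 (1.85, adjusted p = 0.00096) and Mrpl42 (1.56, adjusted p = 0.00093) followed, and in CD28 AYAA Mrps18b (1.29, adjusted p = 0.009) and Mrpl42 (1.26, adjusted p = 0.0072). Mrpl42 had 39.1, 36.4 and 34.4 CPM at day 3 against 15.3, 15.4 and 15.7 CPM at day 1 in DKI, and 27.7 and 18.4 CPM at day 3 against 33.1 and 24.6 CPM at day 1 in WT, so that DKI was higher at day 3 in every library while the WT values of the 2 days overlapped. In Ars2 KO the 2 genes were Mrps10 (0.73, SE 0.21, adjusted p = 0.046) and Mrpl15 (0.53, SE 0.15, adjusted p = 0.049). Mrps35, Mrpl33, Mrpl24 and Mrpl34 moved least in the libraries labelled CD28 KO.

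**Figure D5:**
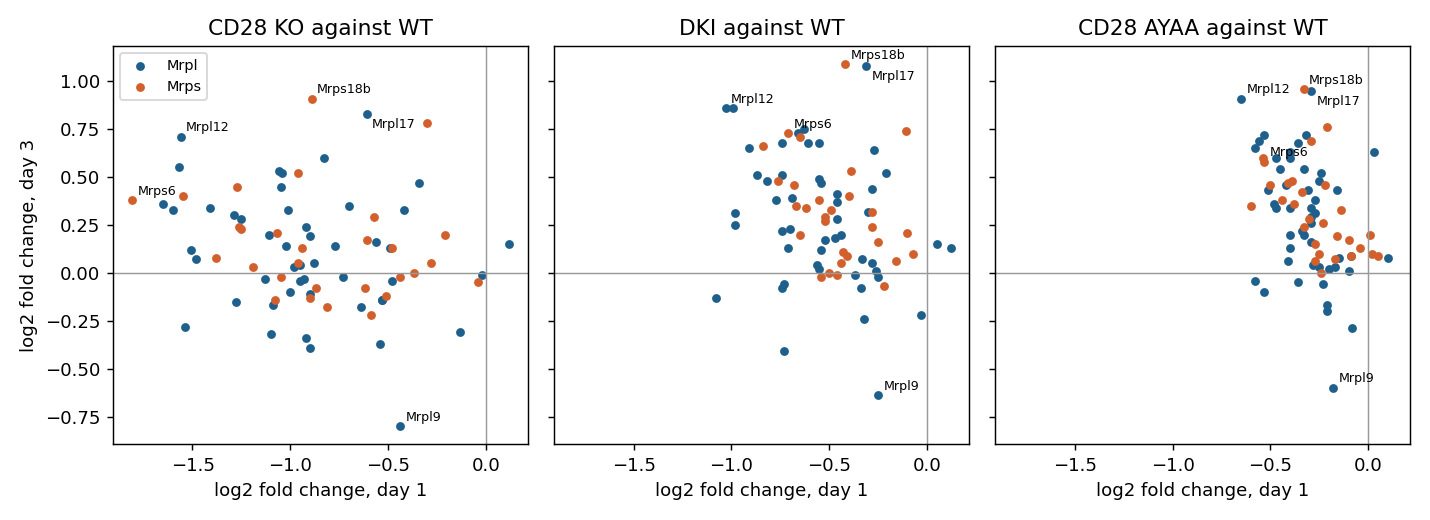
Each point is 1 gene, with its log2 fold change against WT at day 1 on the horizontal axis and at day 3 on the vertical axis, for the libraries labelled CD28 KO, DKI and CD28 AYAA, with Mrpl genes in blue and Mrps genes in orange. Most points lie left of 0 on the day 1 axis and many lie above 0 on the day 3 axis, with Mrpl9 the lowest at day 3 in each panel.

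Other genes of mitochondrial translation are read here against the shares of all genes called at day 1, which were 18.6% higher and 24.7% lower in the libraries labelled CD28 KO and 10.3% higher and 15.8% lower in DKI. Of the 5 mitoribosome proteins that carry other symbols, all fell in the libraries labelled CD28 KO at day 1 against WT (5 of 5, median -0.56), led by Chchd1 (log2 -1.36, SE 0.24, adjusted p = 5.3e-05, edgeR) and Aurkaip1 (-0.79, adjusted p = 1.8e-05), and 3 fell in DKI (median -0.33). Of 15 translation factors and related proteins, 9 fell and 3 rose in the libraries labelled CD28 KO, led by the elongation factors Tufm (-1.44, SE 0.17, adjusted p = 5.4e-07), Gfm1 (-1.28, adjusted p = 1.5e-05) and Tsfm (-1.19, adjusted p = 1.9e-05), and in DKI 5 fell and 1 rose. Of 23 assembly factors, 7 fell and 2 rose in the libraries labelled CD28 KO, among them the GTPase Gtpbp10 (-1.13), the RNA-binding Fastkd2 (-1.11) and the helicase Ddx28 (-1.0), a share lower that is near that of all genes. The counts in DKI were 6 lower and 2 higher. Of 17 mitochondrial tRNA synthetases, 5 fell and 1 rose in the libraries labelled CD28 KO, with Rars2 at -1.01 and Ears2 at 0.74, and with a median of -0.05, so this list also fell about as often as all genes. Of 12 genes of mitochondrial DNA replication and transcription, 5 fell and 0 rose there, among them Mgme1 (-1.29) and Tfam (-0.49). In CD28 AYAA at day 1, 1 gene of these lists passed the test, a translation factor that rose.

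These ribosomes translate the 13 messenger RNAs encoded by mitochondrial DNA. Of the 13, 6 fell and 0 rose in the libraries labelled CD28 KO at day 1 (median -0.39), against 24.7% of all genes called lower. The falls were led by mt-Nd1 (-0.88, adjusted p = 1.9e-05, edgeR). In DKI 1 fell, against 15.8% of all genes. The sum of the 13 was 14870 and 15197 CPM in the libraries labelled CD28 KO against 18973 and 16795 CPM in WT. Of 10 genes named as regulators of mitochondrial biogenesis, 4 fell and 3 rose, with a median of 0.02. Myc, a transcription factor of growth, fell (-1.62, SE 0.29, adjusted p = 6.1e-05), as did Pprc1 (-0.92, adjusted p = 0.012), Gabpa (-0.37, adjusted p = 0.0028), which encodes the ETS-domain subunit of GABP, and Gabpb1 (-0.27, adjusted p = 0.04). Gabpb2 (0.25, adjusted p = 0.0078), Nrf1 (0.24, adjusted p = 0.018) and Ppargc1a (adjusted p = 0.044) rose, the last from a level under 1 CPM in every library. In DKI, 0 of the 10 passed the test by edgeR, and Myc was at -0.65 with an adjusted p of 0.057. At day 3, 8 of 23 assembly factors were higher and 2 lower in DKI, and 6 were higher in CD28 AYAA. Of 17 synthetases, 8 rose in DKI and 7 in CD28 AYAA. Of the 10 regulators, 4 rose and 1 fell in DKI at day 3 (10.3 and 13.1% of all genes), and 3 rose and 0 fell in CD28 AYAA (10.4 and 11.3%). Those that rose in both were Myc (1.3 and 1.2), Pprc1 (1.75 and 1.75) and Ppargc1b (0.62 and 0.78), Esrra rose in DKI (0.38), and Gabpb2 fell there (-0.19).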

How the data were processed

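The members and gene lists were chosen with earlier results of these data known. The deposited values are expected counts per gene, 1 column for each of 34 libraries, made by the authors with bcl2fastq 2.20, FastQC, STAR, RSEM and limma and the builds mm10 and GRCm38, per the submitters' processing notes, which give no step to a tool. Annotation release, filters and strand setting are not given in the sources used here. Per the labels' protocols, ribosomal RNA was depleted and strand kept by dUTP, and libraries were sequenced in pairs. Of the values, 83.7 to 90.8% per library were whole.

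Genes were matched to GENCODE M21 by Ensembl identifier (99.2%). The 2 columns of CD28 KO at day 3 were matched to their group and not to single samples. These values, rounded to whole numbers, entered edgeR 4.0.16 (R 4.3.3) for quasi-likelihood F tests with a mean for each group, all libraries in 1 model, TMM scaling (factors 0.83 to 1.11) and the default filter, with p-values adjusted over 18292 genes for each of 37 comparisons (called at an adjusted p under 0.05). The code was tested on simulated data. The biological coefficient of variation was 0.163. CPM of the genes of the set use TMM library sizes, and errors beside means are SDs. Sums of markers, mitochondrial ribosomal RNA and mitochondrially encoded messenger RNA use total counts without TMM factors. Alternatives were RLE scaling, no filter, nuclear protein-coding genes only, limma-voom (limma 3.58.1), DESeq2 1.42.0, a fit to the groups compared, single libraries left out, a replicate block, WT of 1 depth class, and genes without exon overlap. The last of these and the depth-class form of the between-day test were added after seeing the data. Genes named were up to 4 per direction with the largest called change (3 between mutants and between days), up to 4 that ran against the majority, up to 4 uncalled with the smallest change where most were called, and the 4 highest and lowest per kilobase; the 3 genes of smallest p in a list were named, except where a gene is not reported here, and all called regulators of biogenesis were named.

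Same-numbered libraries of CD28 AYAA and CD28 Y170F at day 1 deviated together (correlations 0.28, 0.33 and 0.39). The number was therefore taken as a pairing there in the replicate block, which is an alternative. The main counts for this pair come from the fit without it. Promoter windows are RefSeq's (GRCm38.p6). Plots were drawn with matplotlib 3.10.9 and tables with pandas 2.3.3 and numpy 2.4.6, under Python 3.11.15.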

Additional observations from a re-analysis of the deposited data

Results flagged for a closer look

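The test of whether the change between day 1 and day 3 differed between a mutant and WT called genes of the set in 4 of the 5 mutants, each with a value above that of WT. It called 39 of the 78 genes in CD28 AYAA (12.3% of all genes), 56 in DKI (17.7%) and 66 in the libraries labelled CD28 KO (20.5%). The 2 genes called in Ars2 KO are a share near the 1.91% of all genes, and that count changed in most refits that left out 1 library. Against WT of the same depth class, the medians were 0.58 in CD28 AYAA, 0.73 in DKI and 0.94 in the libraries labelled CD28 KO. The counts there were lower in all of these, as given in the report. B cell markers were higher in the libraries labelled CD28 KO at day 1, and their part in these counts was not tested.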

How the results depend on the processing

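No called result of a named gene changed sign, and other called genes were not checked for sign. Median fold changes moved by less than the spread between libraries under each scaling, filter, tool and model, except for DKI at day 1 against WT number 4 alone (-0.29). Leaving out 1 library moved 24 medians, of which 4 turned sign: CD28 Y170F at day 3 against unstimulated WT (-0.07 without its number 1) and against WT (0.05 without WT number 1), day 3 against day 1 in Ars2 KO (-0.05 without day 3 number 2) and the between-day test in CD28 Y170F (0.07 without WT day 3 number 1). Medians near 0 also turned sign within that spread for Ars2 KO and CD28 Y170F at day 1 against WT (0.06 and 0.09 without WT number 1) and for CD28 AYAA at day 1 against unstimulated WT (-0.01 with RLE scaling, no filter or DESeq2), among others. Of 72 called results of named genes, DESeq2 ended 0, RLE scaling ended 1, limma-voom 8, no filter 7, a fit to the groups compared 14 and, of 44, WT of 1 depth class 19. Leaving out single libraries ended such a call in 101 of 391 refits. Counts of called genes that moved by over 1.5 times follow, and the cause was not tested. Where a single WT library stood for WT, it was assumed to vary like the other groups.

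In the fit to the groups compared, against unstimulated WT, Ars2 KO and CD28 Y170F at day 3 gave 31 and 15 and DKI at day 1 gave 43. The same fit gave 0 for Ars2 KO against WT at day 3, 6 for day 3 against day 1 in WT, 0 in Ars2 KO and 22 in CD28 Y170F, and 0 for the between-day test in Ars2 KO. It gave 34 and 3 for DKI against the libraries labelled CD28 KO at day 1 and day 3, and 35 and 22 for CD28 AYAA against CD28 Y170F. DESeq2 gave 1 for Ars2 KO against WT at day 1, 8 for CD28 AYAA, 6 for the between-day test in Ars2 KO and 6 for CD28 AYAA against CD28 Y170F at day 1. limma-voom gave 4 for Ars2 KO against WT at day 3, 0 for its between-day test and 4 for DKI against the libraries labelled CD28 KO at day 1. Nuclear protein-coding genes alone gave 14 for the libraries labelled CD28 KO against WT at day 3, 6 for the between-day test in Ars2 KO and 5 for CD28 AYAA against CD28 Y170F at day 1. No filter gave 9 for CD28 AYAA against WT at day 1, 5 for day 3 against day 1 in Ars2 KO, 8 for DKI against the libraries labelled CD28 KO at day 1 and 5 for CD28 AYAA against CD28 Y170F at day 1. RLE scaling gave 1 for the between-day test in Ars2 KO.

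Against WT of the same depth class, the counts were 0 for Ars2 KO at day 3, 2 for the libraries labelled CD28 KO at day 3, 2 for DKI at day 1 and 3 for CD28 AYAA at day 3, and for the between-day test 0 in Ars2 KO, 36 in DKI and 13 in CD28 AYAA. With the replicate block, the between-day test in Ars2 KO gave 5 and DKI against the libraries labelled CD28 KO at day 1 gave 7, while CD28 AYAA against CD28 Y170F at day 1 gave 2 with its pairing. Outside that pair the numbers were not taken to pair the libraries. Same-numbered libraries of Ars2 KO, CD28 AYAA and CD28 Y170F did share a sex pattern between the days. The deviations of same-numbered WT libraries correlated at 0.29 between the days. The main fit took no account of this in its tests between days.

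Leaving out 1 library at a time, against unstimulated WT, gave 18 to 38 for Ars2 KO at day 1, 27 to 54 at day 3, 14 to 22 for CD28 AYAA at day 1, 17 to 23 for the libraries labelled CD28 KO at day 3, 21 to 35 for CD28 Y170F at day 3, 19 to 41 for WT at day 1 and 18 to 32 at day 3. Against WT of the same day it gave 0 to 20 for Ars2 KO at day 3, 0 to 6 and 4 to 24 for CD28 AYAA at day 1 and day 3, 2 to 9 for the libraries labelled CD28 KO at day 3, 0 to 11 for CD28 Y170F at day 3, and 2 to 50 and 6 to 23 for DKI at day 1 and day 3. For day 3 against day 1 it gave 6 to 11 in Ars2 KO, 24 to 49 in CD28 Y170F and 9 to 23 in WT, and for the between-day test 0 to 10 in Ars2 KO, 12 to 47 in CD28 AYAA and 28 to 59 in DKI. It gave 0 to 2 and 25 to 59 for CD28 AYAA against CD28 Y170F at day 1 and day 3, and 2 to 9 for DKI against the libraries labelled CD28 KO at day 1. The lowest count of any of the 78 genes in a library was 40, for Mrpl55 in a shallow library.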
